A study of Mus musculus with 18 samples.

Results

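The miR-125 family was examined together with miR-351, which carries the same seed, in BV-2 cells, an immortalized mouse microglial line. Every row of the hairpins mmu-mir-125a, mmu-mir-125b-1, mmu-mir-125b-2 and mmu-mir-351 and of their mature arms was taken whatever its level. This gave 11 features, 4 hairpins and 7 mature miRNAs, of 2134 features listed in each sample. All 11 had at least 10 reads over the 18 samples and were among the 1363 features tested.

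Small RNA was sequenced in 6 groups of 3 samples. The groups were untreated cells (control), cells given LPS at 100 ng/ml for 4 h, cells given cannabidiol (CBD) or Δ9-tetrahydrocannabinol (THC) at 10 μM for 6 h, and cells given CBD or THC 2 h before LPS (CBD+LPS and THC+LPS). LPS is the bacterial endotoxin that activates microglia through Toll-like receptor signaling. CBD and THC are isomeric cannabis compounds that differ in a ring, closed through the phenol oxygen in THC and open in CBD. All groups are cultures of a single line, and the labels do not say that the samples of a group came from separate cultures, so the p-values measure only the spread between these samples, which may be technical.

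miRNAs are cut from a hairpin precursor, whose 5p or 3p arm is loaded into Argonaute, and they recognize targets mainly through the seed, bases 2 to 8 from the 5′ end. The miR-125 family is the mammalian counterpart of worm lin-4, and its hairpins lie in clusters with let-7 and miR-99/100 genes. In myeloid cells miR-125b is known for acting on messages of inflammatory and differentiation regulators such as Tnf and Irf4. miR-351 is a rodent miRNA of an X-linked cluster that also holds miR-322 and miR-503.

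The mature sequences are shown because they set which members share a seed and which can be told apart in reads. All 7 were matched in RefSeq on GRCm38.p6, and capitals mark the seed.

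miR-125a-5p: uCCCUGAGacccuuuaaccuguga
miR-125b-5p: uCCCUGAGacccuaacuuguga
miR-351-5p: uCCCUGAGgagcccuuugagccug
miR-125a-3p: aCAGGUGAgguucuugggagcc
miR-125b-1-3p: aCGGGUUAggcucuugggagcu
miR-125b-2-3p: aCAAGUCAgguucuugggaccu
miR-351-3p: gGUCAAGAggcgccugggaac

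The 5p miRNAs of the family share the seed CCCUGAG, which 5 of 1679 mature names in the RefSeq table carry. The other two were miR-6367 and miR-6394, each with 2 reads over all samples. miR-125a-5p and miR-125b-5p begin with the same 13 bases, whereas miR-351-5p leaves both after base 8. miR-125b-5p has the same sequence at both of its loci, so its reads cannot be assigned to mir-125b-1 or mir-125b-2. The 3p arms have 4 different seeds. Those of mir-125b-1 and mir-125b-2 match at 17 of 22 positions, with different seeds, which allows the loci to be read apart.

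The 4 hairpin genes lie on different chromosomes (GENCODE M21, GRCm38). Mir125a lies at chr17:17830812-17830879 on the plus strand, in an exon of Spaca6, with the gene of let-7e 460 bases and that of miR-99b 624 bases upstream, counted between gene starts. Mir125b-1 lies at chr9:41581926-41582002 on the plus strand, in an intron of the long non-coding gene 3110039I08Rik. Mir125b-2 lies at chr16:77646273-77646343 on the plus strand, in an intron of Mir99ahg, the host of Mir99a and Mirlet7c-1. Mir351 lies at chrX:53053255-53053353 on the minus strand and overlaps no other annotated gene.

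Reads counted on all listed features, which are fewer than the reads sequenced, ranged from 442718 to 1057147 per sample. Members took between 1.11% and 1.62% of them. Levels are in CPM, the reads of a feature scaled to this total of counted reads and edgeR's TMM factor. In these units 3 reads equalled 2.98 to 6.38 CPM depending on the sample. This floor and the intervals given for shares of reads cover counting error only. The blood and myeloid markers miR-142-5p, miR-142-3p and miR-223-3p had medians of 8703, 1849 and 132 CPM. The 8 markers of neurons, liver, muscle and red cells summed to at most 17.2 CPM, with medians of 0 for 6 of them. LPS raised miR-155-5p, the inflammatory miRNA induced by LPS in macrophages, from 922 ± 325 CPM to 8921 ± 662 CPM (SD, n = 3 each). Samples 22 to 27, the first of each group by label number, stood apart from samples 28 to 39 in earlier results of these data. Some comparisons are therefore also given for samples 28 to 39 alone, 2 per group. The labels name no batch for either set, and the authors report sequencing all libraries in a single pool. Whether the cultures or the library preparation differed between the sets is not given. The share of reads on 3 hairpins, mir-6243, mir-6240 and mir-6236, varied between libraries. Summed, it was between 0.151% and 0.361% in samples 22 (control), 27 (THC+LPS), 30 and 36 (both CBD), and between 1.20% and 4.55% in the other samples.

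miR-351-5p was the leading member. It had 133893 reads over all samples, or 75.9% of the reads of the 11 members, and stood at rank 20 of all features by mean level. Its level was 10004 CPM on average, with a lowest value of 7758, a median of 9799 and a highest of 13225 CPM over the 18 samples. miR-125b-5p followed with 22758 reads and a mean of 1660 CPM (lowest 827, median 1774, highest 2335 CPM). miR-125b-2-3p had 7450 reads and a mean of 540 CPM. In every sample these 3 mature miRNAs kept this order, and their ranges did not overlap. Because a read of a mature miRNA covers it nearly whole, these levels were set side by side without a correction for length. Differences in how well each sequence is captured were not measured.

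The remaining mature members were rare. miR-125b-1-3p had 71 reads and miR-351-3p 61 reads over all samples, each with at least 1 read in every sample and with means of 5.47 and 4.80 CPM, near the floor. miR-125a-3p had 16 reads and miR-125a-5p 12 reads, each found in 9 of 18 samples, and neither exceeded 4 reads in a sample. At such counts no order between miR-125a-3p and miR-125a-5p can be read. Among the hairpins, mmu-mir-351 had 9679 reads and mmu-mir-125b-2 had 2354 reads, whereas mmu-mir-125a had 16 and mmu-mir-125b-1 had 10 reads. How reads were divided between a hairpin and its mature arms is not given in the sources used here, so hairpin values were not read as precursor levels.

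The 3p arms of miR-125b can be assigned to a locus, and nearly all of their reads were those of mir-125b-2. Of 7521 reads on the 3p arms of miR-125b, 7450 were miR-125b-2-3p, or 99.06% (Wilson 95% interval 98.81 to 99.25%), and the share was between 97.1% and 99.7% in each sample. This share concerns the 3p arms alone, because the 5p arm is the same at both loci. The 3p arms made up between 21.4% and 30.2% of the reads of both miR-125b arms. By contrast, miR-351-3p made up 0.0455% of the reads of both miR-351 arms (0.0355 to 0.0585%).

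The neighbours of the 4 loci differed widely in level. At the chromosome 16 locus miR-99a-5p had a mean of 1781 CPM, beside 540 CPM for miR-125b-2-3p. At the chromosome 9 locus miR-100-5p had a mean of 70.1 CPM, beside 5.47 CPM for miR-125b-1-3p. At the chromosome 17 locus miR-99b-5p was at 0.532 CPM and let-7e-5p at 6.32 CPM, while let-7e-3p was at 37.9 CPM, above the members of that locus. On the X chromosome miR-351-5p exceeded all its neighbours, of which miR-322-5p had the highest mean, 1635 CPM, followed by miR-542-3p with 261 CPM and miR-322-3p with 209 CPM. let-7a-5p and let-7c-5p are each made from genes at several loci, so their reads cannot be placed at these loci.

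**Figure D1:**
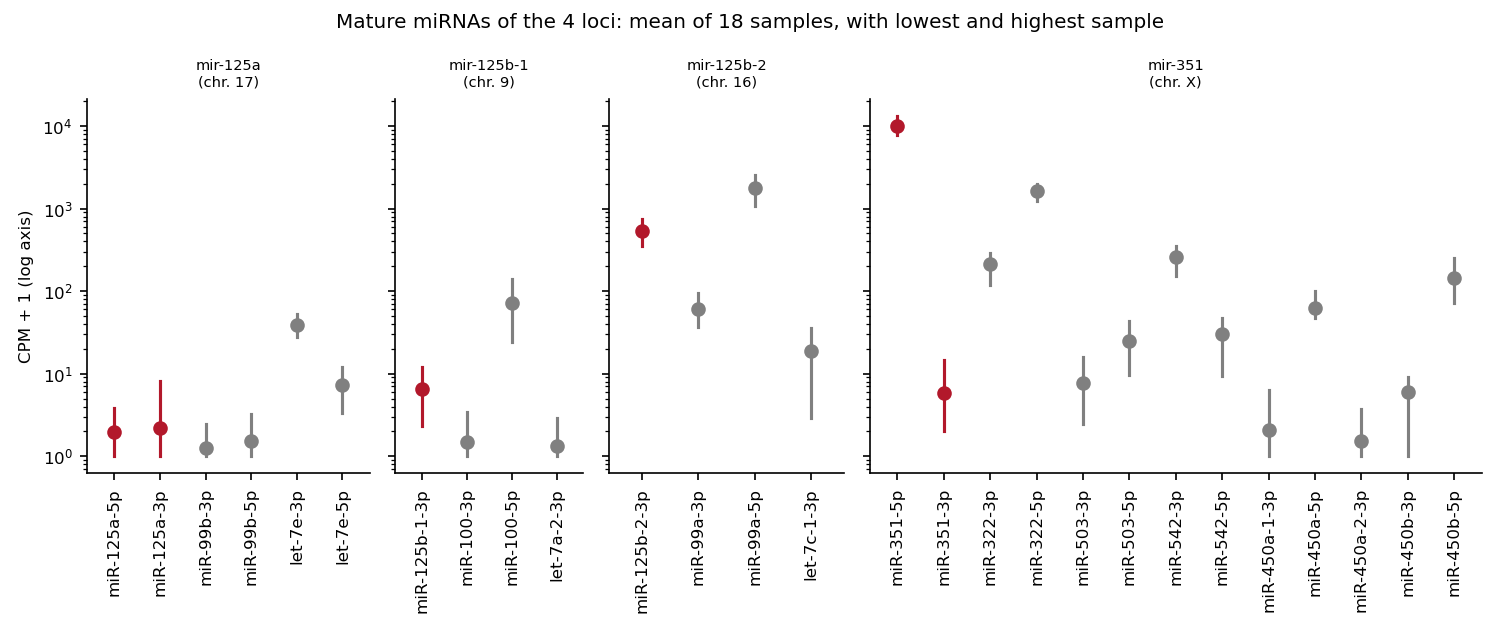
Mature miRNAs of the 4 loci, in CPM + 1 on a log axis, with members in red and neighbours in grey; points are means of 18 samples and lines run from the lowest to the highest sample, and miR-125b-5p, let-7a-5p and let-7c-5p are left out because genes at more than a single locus make each. Members of the chromosome 17 locus lie below 10 CPM, miR-125b-2-3p lies at a mean of 540 CPM beside miR-99a-5p at 1781 CPM, and miR-351-5p at 10004 CPM lies above its X-linked neighbours.

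Across treatments, none of the 11 members passed the criterion of the study (an unadjusted p not above 0.005 and a 1.5-fold change or more) in any of the 7 comparisons of pairs of groups. None passed an adjusted p of 0.1 in the F test across the 6 groups, in the interactions of CBD or THC with LPS, or in the effects of LPS, CBD or THC pooled over the other treatment. These counts are from limma, and edgeR and DESeq2 on the recovered reads also called 0 members in each of the 13 comparisons. In bulk samples such as these, fewer cells of a type and less RNA per cell cannot be told apart. In CPM, samples of the treated group all above those of control were found for 5.58% (LPS), 6.9% (CBD) and 3.82% (THC) of all tested features. They were all below for 3.82%, 3.3% and 3.01%. In both directions this held for 0 members, which out of 11 is near these shares. For CBD+LPS these shares were 3.45% above and 5.87% below LPS and 2.71% above and 3.82% below THC+LPS, and for THC+LPS 4.62% below LPS, again with 0 members. All values by group of the 5 members with over 1000 reads are shown in the plot by treatment, and the order of the group means was not tested as such.

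**Figure D2:**
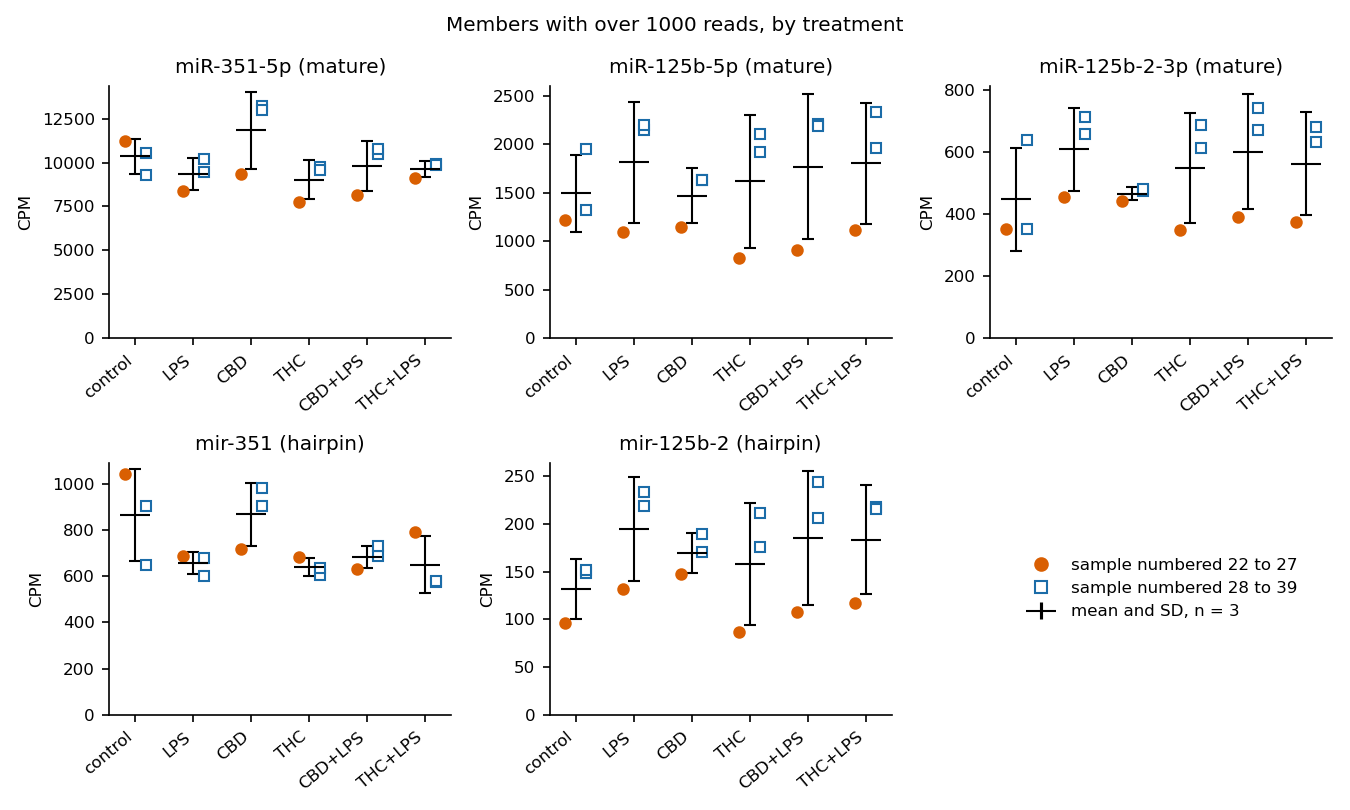
Levels in CPM of the 5 members with over 1000 reads in each treatment; orange circles are samples 22 to 27, open blue squares are samples 28 to 39, and black marks are the mean and SD of 3 samples. miR-125b-5p and mir-125b-2 are lower in the circle than in both squares in each of the 6 groups, and miR-351-5p has its highest values, 13225 and 13010 CPM, in samples 30 and 36 with CBD.

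With LPS alone, 0 of 11 members were called, against 1.54% of all tested features, and 0 members reached an unadjusted p of 0.05, against 5.87%. mir-125b-2 was measured at 95.7, 149 and 151 CPM in control and at 132, 218 and 234 CPM with LPS. The groups overlapped, since the lowest LPS sample was below 2 of the control samples. The log2 fold change was 0.54 ± 0.38 (SE, limma; adjusted p = 0.949). miR-125b-2-3p, the 3p arm of this hairpin, was at 350.9, 352 and 641 CPM in control and at 456, 659 and 713 CPM with LPS, a log2 fold change of 0.48 ± 0.33 (adjusted p = 0.949). miR-125b-5p was at 1214, 1317 and 1946 CPM in control and at 1093, 2146 and 2193 CPM with LPS. Its LPS samples held both the lowest and the highest values of the pair of groups. The log2 fold change was 0.24 with a 95% interval from -0.62 to 1.10, so a change of 1.5-fold in either direction was within the interval.

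The miR-351 members lay on the other side of 0 with LPS. The mir-351 hairpin was at 648, 906 and 1044 CPM in control and at 601, 682 and 687 CPM with LPS, with a log2 fold change of -0.37 ± 0.20 (limma adjusted p = 0.901). A single control sample, at 648 CPM, fell among the LPS samples. miR-351-5p was at 9263, 10555 and 11223 CPM in control and at 8389, 9489 and 10213 CPM with LPS, with a log2 fold change of -0.14 and a 95% interval from -0.50 to 0.21. The interval for miR-351-5p stayed within 1.5-fold in both directions. The median log2 fold change was -0.14 over the 11 members and 0.11 over all tested features. Pooled over cannabinoid, 0 members were called, against 1.54% of all features, and 1 member, miR-125b-1-3p, reached an unadjusted p of 0.05 (log2 difference -0.67 ± 0.30, limma adjusted p = 0.655, with between 1 and 7 reads per sample). That level was reached by 6.97% of all features, near the share of 1 in 11.

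In samples 28 to 39 alone, with 2 samples per group, mir-125b-2 passed the criterion for LPS against control (log2 fold change 0.59, limma adjusted p = 0.0824), as did 2.71% of all tested features in this subset. In these samples it was at 149 and 151 CPM in control and at 218 and 234 CPM with LPS. miR-125b-2-3p and miR-125b-5p had log2 fold changes of 0.53 and 0.44 there (adjusted p = 0.219 and 0.190) and did not pass. In this subset the F test across the groups called 3 members, mir-351, miR-351-5p and mir-125b-2, with adjusted p of 0.0312, 0.0337 and 0.0978, and 18.2% of all tested features. In all 18 samples the F test called 0 members, against 1.76% of all features, with 0 members at an unadjusted p of 0.05, against 8.36%.

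With CBD alone, 0 of 11 members were called, against 1.61% of all tested features, and 0 members reached an unadjusted p of 0.05, against 9.17%. miR-351-5p was at 9321, 13010 and 13225 CPM with CBD, and the 2 higher of these exceeded all other samples of the series. The sample at 9321 CPM lay within the range of control. The log2 fold change was 0.18 with a 95% interval from -0.18 to 0.54 (limma adjusted p = 0.779). In samples 28 to 39 alone it was 0.41 (adjusted p = 0.0115), still under 1.5-fold. The CBD samples of that subset had 0.160% and 0.151% of reads on mir-6243, mir-6240 and mir-6236, against 3.81% and 2.41% in its control samples, and with the summed level of these hairpins as a covariate over all 18 samples the value was 0.07 (limma adjusted p = 0.950). miR-125b-5p was at 1143, 1628 and 1634 CPM with CBD, with 2 samples inside and 1 below the range of control, and its log2 fold change was -0.01 with a 95% interval from -0.87 to 0.85.

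With THC alone, 0 of 11 members were called, against 0.44% of all tested features, with 0 at an unadjusted p of 0.05, against 3.37%. mir-351 was at 608, 635 and 683 CPM with THC, and the lowest control sample, at 648 CPM, lay among them. The log2 fold change was -0.41 with a 95% interval from -0.83 to 0.01 (limma adjusted p = 0.977). miR-351-5p was at 7758, 9567 and 9746 CPM, a log2 fold change of -0.20 ± 0.17. miR-125b-5p was at 827, 1914 and 2104 CPM, the widest spread of the 3 groups without LPS, and its log2 fold change was 0.03 ± 0.41.

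CBD and THC were compared at the same dose and time. This comparison had the lowest adjusted p of any for members, but 0 of 11 were called, against 3.3% of all tested features. At an unadjusted p of 0.05 limma had 2 members, miR-351-5p and its hairpin mir-351, against 16.2% of all tested features, so 2 of 11 was near the background. miR-351-5p was higher with CBD by 0.38 ± 0.17 on the log2 scale (adjusted p = 0.272), and its lowest CBD sample, at 9321 CPM, lay below 2 of the THC samples. mir-351 was at 717, 905 and 985 CPM with CBD, and each of these exceeded all THC samples. The log2 difference was 0.43 with a 95% interval from 0.01 to 0.84 (adjusted p = 0.303). mir-351 was the only member in which the CBD samples all lay above the THC samples, as they did in 10.1% of all tested features. miR-125b-5p differed by -0.04 with a 95% interval from -0.91 to 0.82, which holds differences of 1.5-fold both ways. miR-125b-2-3p differed by -0.18 with an interval from -0.87 to 0.50, which holds a 1.5-fold fall but not a 1.5-fold rise.

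The difference between CBD and THC in the miR-351 members varied with the settings. In samples 28 to 39 alone, mir-351 passed the criterion (log2 difference 0.60, limma adjusted p = 0.0119), as did 11.6% of all tested features in this subset, and miR-351-5p differed by 0.44 (adjusted p = 0.00649) without reaching 1.5-fold. Both CBD samples of this subset, 30 and 36, were those with the low share of reads on mir-6243, mir-6240 and mir-6236, 0.160% and 0.151%, against 2.77% and 1.80% in the THC samples. With the summed level of these 3 hairpins as a covariate over all 18 samples, the difference was 0.03 for mir-351 (adjusted p = 0.980) and 0.19 for miR-351-5p (adjusted p = 0.884), while the median of all features went from -0.08 to 0.08. Within samples 28 to 39 only the CBD samples had the low share, so CBD and library composition cannot be told apart there. Over all 18 samples the overlap was partial. There 2 of the 3 CBD samples were among the 4 with the low share, and CBD sample 24, at 1.67%, was not. With scaling to the reference miRNAs of the study, miR-103-3p and miR-191-5p, the differences of mir-351 and miR-351-5p were 0.15 and 0.11.

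**Figure D3:**
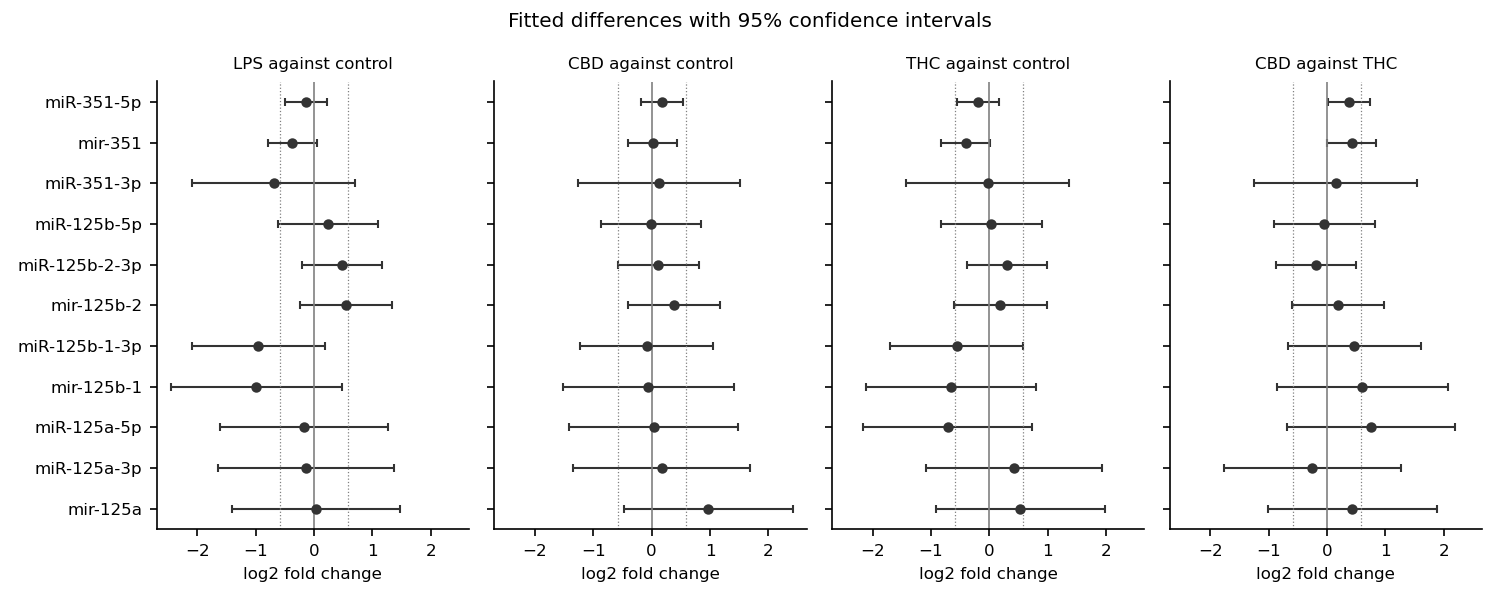
Fitted log2 fold changes of the 11 members with 95% confidence intervals in 4 comparisons; dotted lines mark 1.5-fold. Intervals of miR-351-5p and mir-351 are narrower than those of the miR-125b members, and the 6 members with few reads have intervals over 2 log2 units wide.

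In cells given LPS, the comparison with an added cannabinoid gave log2 fold changes near 0 for the abundant members. With CBD+LPS against LPS, 0 of 11 members were called, against 0.22% of all features, with 0 at an unadjusted p of 0.05 in limma, against 3.23%. Log2 fold changes of the 5 abundant members lay between -0.11 and 0.06. miR-351-5p was at 8139, 10486 and 10768 CPM with CBD+LPS and miR-125b-5p at 908, 2188 and 2210 CPM, and both overlapped their LPS samples. With THC+LPS against LPS, 0 of 11 were called, again against 0.22%, and the abundant members lay between -0.13 and 0.05. miR-351-5p was at 9135, 9851 and 9941 CPM and miR-125b-5p at 1116, 1957 and 2335 CPM with THC+LPS. The 95% intervals of miR-125b-5p were -0.94 to 0.79 and -0.87 to 0.86 in these comparisons, against -0.30 to 0.42 and -0.31 to 0.40 for miR-351-5p.

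The member with an unadjusted p under 0.05 for THC+LPS against LPS was miR-125a-3p (log2 fold change 1.62 ± 0.72, limma adjusted p = 0.9997). That level was reached by 2.35% of all features. The value rested on 4, 2 and 1 reads in the THC+LPS samples and 0, 0 and 1 in the LPS samples. miR-125a-3p and the mir-125a hairpin were the only members in which all THC+LPS samples exceeded all LPS samples in CPM, as 2.57% of all tested features did. The hairpin had 5 reads in the THC+LPS group and 1 in the LPS group, so both results lie at the level of the floor. CBD+LPS against THC+LPS called 0 members, against 0.147% of all features, with 0 at an unadjusted p of 0.05, against 2.64%, and in the abundant members it differed by -0.07 to 0.09 on the log2 scale.

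The interactions asked whether a cannabinoid changed the response to LPS. Neither called a member, and limma called 0% of all tested features in both. In samples 28 to 39 alone, with 2 samples per group, 134 of 1363 features were called for the CBD interaction and 0 for that of THC, again with 0 members. Log2 interaction terms of the abundant members lay between -0.49 and 0.04 for CBD and between -0.43 and 0.38 for THC, with 95% intervals reaching from -1.61 to 1.18. Pooled over LPS, CBD called 0 members, against 0.293% of all features, and THC called 0 members and 0% of all features. No member had an unadjusted p of 0.05 in these 4 tests, against 4.77% and 3.74% of all features in the CBD and THC interactions and 6.82% and 3.01% in the pooled CBD and THC effects.

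The 3 miRNAs with the shared seed were added up as a pool, which miR-351-5p dominated. Of 156663 reads in the pool, 133893 or 85.5% were miR-351-5p (85.3 to 85.6%), and 12 were miR-125a-5p. The pool had a mean of 11841 ± 1091 CPM in control, 11175 ± 1503 with LPS, 13322 ± 2475 with CBD and 10639 ± 1788 with THC. With CBD+LPS and THC+LPS it had 11567 ± 2185 and 11445 ± 1059 CPM (SD, n = 3 each). The samples of each treated group overlapped those of control, and no test was made on this sum.

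The share of miR-351-5p in the pool was steady with CBD, from 88.9% to 89.1%, and ranged from 82.2% to 90.4% with THC and from 81.2% to 88.4% with LPS. In 6 of 6 groups the sample numbered 22 to 27 had the highest share. Over those 6 samples it was 88.4 to 90.4%, and over samples 28 to 39 it was 81.0 to 89.0%, with CBD samples 30 and 36 and control sample 34 at the top of the latter range. Reads on the mir-351 hairpin stood at 5.80 to 9.79 per 100 reads of miR-351-5p across samples.

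**Figure D4:**
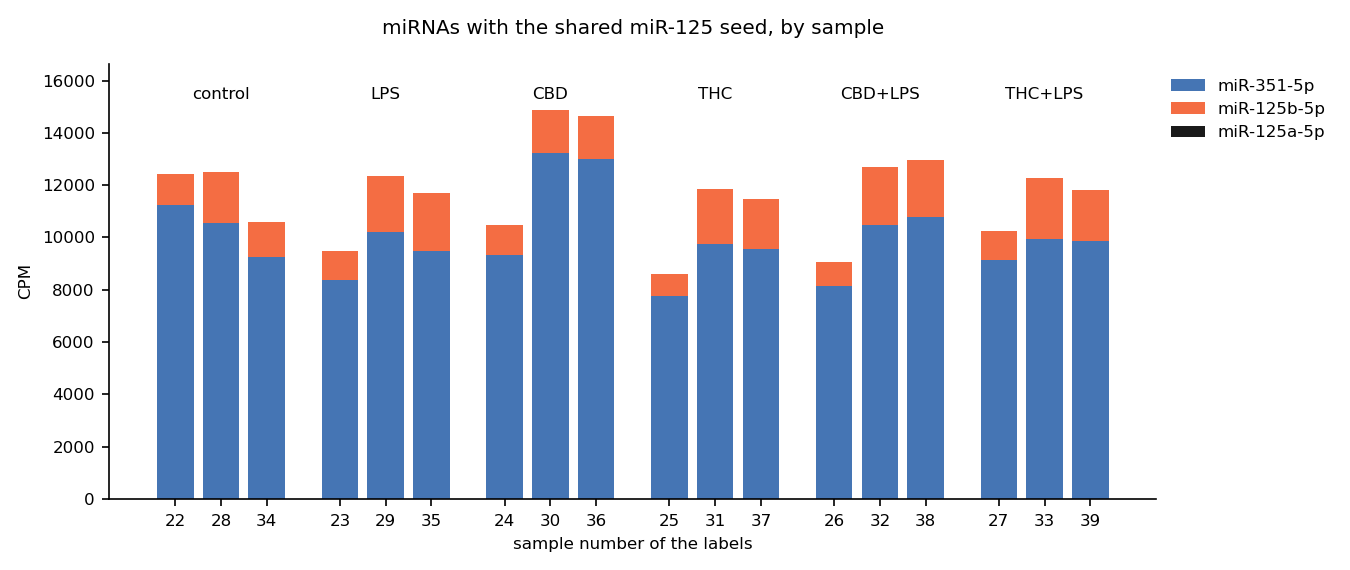
Stacked levels in CPM of the 3 miRNAs with the miR-125 seed in each of the 18 samples, ordered by treatment and named by sample number. miR-351-5p makes up 81.0% to 90.4% of each bar, miR-125a-5p is too low to be seen, and the highest bars, 14861 and 14638 CPM, are CBD samples 30 and 36.

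Among the 5 abundant members, the widest spread within groups on the log2 scale was in miR-125b-5p, mir-125b-2 and miR-125b-2-3p. It followed the sample numbers only in part. In control, miR-125b-2-3p was at 350.9, 352 and 641 CPM in samples 22, 34 and 28, and miR-125b-5p at 1214, 1317 and 1946 CPM. miR-125b-5p was between 827 and 1214 CPM in samples 22 to 27 and between 1317 and 2335 CPM in samples 28 to 39. mir-125b-2 was between 86.5 and 148 CPM in the former and between 149 and 244 CPM in the latter. For these 2 members all samples 22 to 27 lay below all samples 28 to 39, as they did in 2.93% of tested features, and 0 members lay above, against 0.807%. miR-125b-5p, miR-125b-2-3p and mir-125b-2 had their lowest value of the group in the sample numbered 22 to 27 in 6 of 6 groups, as 4.84% of tested features did. Their mean log2 differences were -0.90, -0.62 and -0.80, against a median of -0.02 over all tested features with quartiles of -0.36 and 0.30. The abundant X-linked members were closer between the sets, with -0.23 for miR-351-5p and 0.10 for mir-351. Even so, miR-351-5p was lowest in the sample numbered 22 to 27 in 5 of 6 groups, and mir-351 in 2 of 6. Their neighbour miR-322-5p was lowest there in 6 of 6 groups. It was between 1218 and 1495 CPM in samples 22 to 27 and between 1554 and 1994 CPM in samples 28 to 39. No test was made of this split, because it was known from earlier results of these data, and within treatments it rests on 1 sample against 2.

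Sample by sample, levels of the miR-125b arms moved with that of miR-99a-5p of the chromosome 16 locus. miR-125b-2-3p and miR-99a-5p of the same host gene had a Pearson correlation of log2 levels of 0.97 over the 18 samples (Spearman 0.94), and miR-125b-5p, which either of its loci can give, and miR-99a-5p one of 0.95 (Spearman 0.91). miR-125b-5p and miR-125b-2-3p had one of 0.91. With let-7c-5p, which genes at several loci give, miR-125b-2-3p had one of 0.81. miR-99a-5p was also lowest in the sample numbered 22 to 27 in 6 of 6 groups, so these values share the split between the sets. On the X chromosome the correlations of miR-351-5p were lower. They were 0.52 with miR-322-3p, 0.44 with miR-322-5p, -0.14 with miR-542-3p and -0.17 with miR-450b-5p (Spearman 0.50, 0.45, 0.09 and -0.31). These values describe 18 samples that share groups and scaling.

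**Figure D5:**
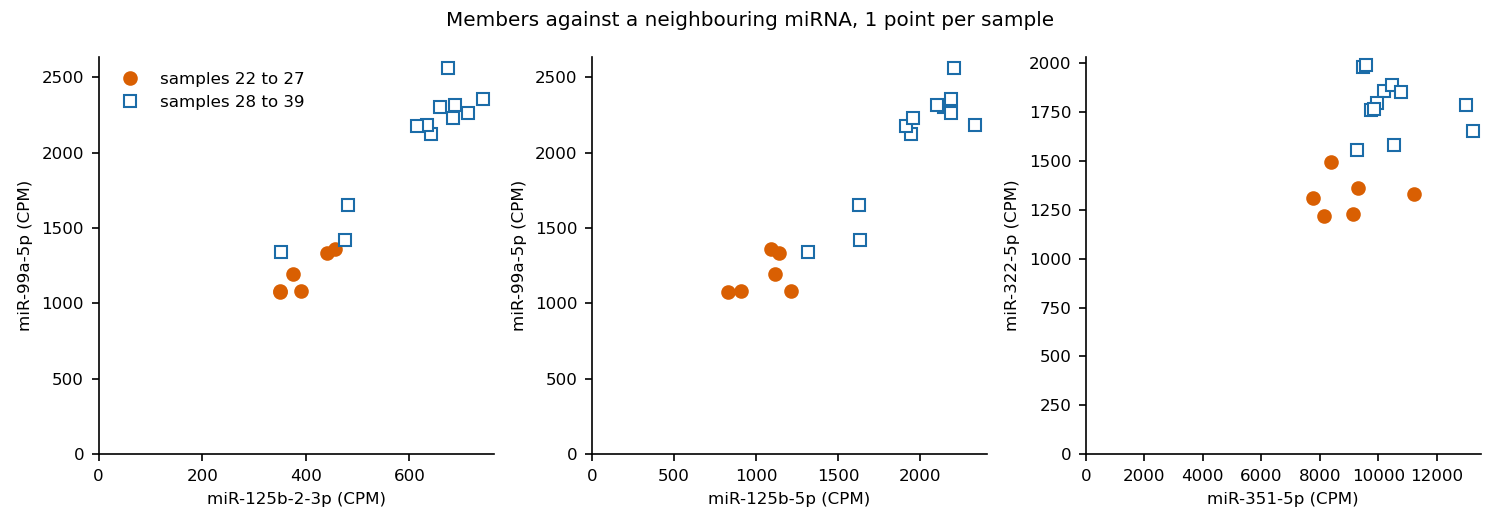
Levels in CPM of a member (horizontal axis) against a neighbouring miRNA (vertical axis), of the same locus for miR-125b-2-3p and miR-351-5p and of 1 of its 2 loci for miR-125b-5p, with 1 point per sample, with orange circles for samples 22 to 27 and open blue squares for samples 28 to 39. miR-125b-2-3p and miR-125b-5p rise along with miR-99a-5p (Pearson 0.97 and 0.95 on the log2 scale), and miR-351-5p against miR-322-5p is more scattered (0.44).

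Among 243 features with a mean of at least 100 CPM, the features most like miR-125b-5p over the 18 samples were miR-181a-5p (Pearson 0.98), miR-1843a-5p (0.98) and miR-664-3p (0.97). Each of these was above the 0.95 of miR-125b-5p with miR-99a-5p, so a value of that size was not particular to the locus. No such search was made for miR-125b-2-3p, so whether its 0.97 with miR-99a-5p was particular to the locus was not tested. The features most like miR-351-5p were miR-181b-5p (0.94), mir-92a-1 (0.93) and let-7d-3p (0.88). For miR-125a-5p the highest values were 0.75 with miR-378c, 0.74 with miR-450b-5p and 0.71 with miR-126-5p, but this miRNA had at most 2 reads in a sample. miR-125b-5p and miR-351-5p themselves, which share a seed and not a locus, had a correlation of 0.51.

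The neighbours of the 4 loci comprised 35 features, of which 27 were tested. A single neighbour met the criterion in any comparison, the let-7e hairpin, higher with CBD than with THC by 1.91 ± 0.46 on the log2 scale (limma adjusted p = 0.103, background 3.3% of all features). It had a mean of 10.3 CPM, and its mature arms let-7e-5p and let-7e-3p did not meet the criterion, with log2 differences of 0.84 ± 0.46 and -0.21 ± 0.31. With LPS against control, miR-99a-5p changed by 0.40 ± 0.37 and miR-322-5p by 0.25 ± 0.22 on the log2 scale, and neither was called.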

How the data were processed

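Small RNA libraries (TruSeq) of 18 BV-2 samples were sequenced on an Illumina HiSeq. The authors aligned reads to mouse miRBase with BWA, with a limit on the mappings per read, and processed counts with edgeR. The miRBase version of the alignment, and whether a read with several mappings was counted at each, are not given in the sources used here. The values the authors deposited are CPM scaled by TMM. In 11 samples their sum exceeds that of plain CPM, and there the deposited values were recorded as a signal, although the quantity is the same. Whole reads were recovered for 100% of values (tolerance 0.0001 of a read), and TMM recomputed from them matched the deposited scale.

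For every feature with 10 or more reads in total, log2(CPM + 1) was fitted with limma 3.58.1 (mean-variance trend, R 4.3.3) in a model of the 6 groups, and in an additive model of LPS and cannabinoid for pooled effects. Fold changes on this scale understate changes of low features. Tests were 2-sided, with Benjamini-Hochberg adjustment over the 1363 tested features. Pairs of groups were called at an unadjusted p of at most 0.005 and 1.5-fold, the other tests at an adjusted p of at most 0.1. Alternatives included edgeR 4.0.16 and DESeq2 1.42.0 on the reads, other scalings, filters, pseudocounts and covariates, and each sample left out. Scripts were tested on simulated data. Correlations used log2(CPM + 1).

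Named features were the members, the miRNA genes of their clusters, other miRNAs with the seed, and the 3 features most correlated with each 5p member among those with a mean of at least 100 CPM, with miR-155-5p as the LPS reference and the reference miRNAs of the study. Members, lists, tests and the split at sample 28 were chosen with earlier results of these data known. Quantitative PCR and pathway results were not analysed here.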

Additional observations from a re-analysis of the deposited data

How the results depend on the processing

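Counts of called members were recomputed under 33 alternative settings. Those limited to mature miRNAs, to hairpins or by a stricter filter on low features tested only part of the members. The untested members could not be called there. Of 429 counts, 426 stayed at 0, including 234 with a sample left out. The 3 others came from samples 28 to 39 alone, with 2 samples per group: 1 member for LPS against control, 1 for CBD against THC and 3 across the 6 groups; the cause was not tested. Of 4152 log2 differences of members under alternatives, 291 had the other sign, 158 of them among 1920 of the abundant members, and none of these was called. Over all settings the CBD against THC difference ranged from 0.11 to 0.55 for miR-351-5p and from 0.03 to 0.60 for mir-351, and the LPS difference from 0.33 to 0.80 for mir-125b-2 (lowest adjusted p 0.0824). Scaling to miR-103-3p and miR-191-5p moved the median of all features from -0.08 to -0.30 for CBD against THC and from 0.11 to -0.05 for LPS against control.

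Counts over all features moved more than 1.5 times under some settings. For CBD against control, 22 features became 9 to 38 under other settings, 15 to 61 with a sample left out (61 without control sample 22) and 153 in samples 28 to 39. For CBD against THC, 45 became 19 to 55, 18 to 88 (18 without CBD sample 36, 88 without CBD sample 24) and 158. For LPS against control, 21 became 6 to 27 and 37. Across the 6 groups, 24 became 12 to 42 and 248. The interaction of CBD and LPS went from 0 to 134 in samples 28 to 39. For pooled LPS, 21 became 7 to 32, and for pooled CBD, 4 became 0 to 18, 1 to 9 with a sample left out, and 89. The 6 for THC became 0 to 10, and 13 in samples 28 to 39, and the other pairs, at 3, 3 and 2, lay between 0 and 7.

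No paired analysis was possible because the groups share no replicate number: each number occurs once in the labels, which do not say that numbers in a row belong together. With a covariate for samples 22 to 27, 0 members were called in each of the 13 comparisons. At 442718 to 1057147 counted reads per sample, the members of mir-125a and mir-125b-1 lay at or near the 3-read floor. The size of change that could be detected in them was not tested.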
